A study of Mus musculus with 30 samples.

Results

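The 9 genes described here, Itga2b, Gp9, Gp1bb, Gp6, Vwf, Pf4, Treml1, Rab27b and Fli1, carry the surface receptors, granule contents, secretion machinery and a transcription factor of megakaryocytes and platelets. They were taken by symbol, and all 9 were among the 24421 genes listed in each of 5 deposited expression tables. RNA of sorted mouse bone marrow progenitors was sequenced in 30 libraries, in 10 groups of 3. The cells were MPP3 and MPP4, the multipotent progenitors usually described as myeloid-biased and lymphoid-primed, and each group was labelled T1 or T2.

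The groups were T1 and T2 MPP3 of KOiMOS mice at 3 months, T1 and T2 MPP3 of WTiMOS mice at 3 and at 24 months, and T1 and T2 MPP4 of WTiMOS mice at 3 and at 24 months. The study asked what the transcription factor Bcl11a does within these cells and what its overexpression does in wild-type MPP3. What T1 and T2 stand for, which of them lacks or gains Bcl11a, the promoter or cell type that drives the iMOS alleles, the sort gates, and the number, sex and pooling of the mice are all not given in the sources used here. KOiMOS MPP3 of 24 months was not analysed here. Nothing says that the 3 libraries of a group came from separate animals, so the p-values measure the spread between libraries, which may be technical.

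Megakaryocytes arise from bone marrow progenitors and shed platelets. On platelets, the integrin of Itga2b and Itgb3 binds fibrinogen, the receptor complex of Gp1ba, Gp1bb, Gp9 and Gp5 binds von Willebrand factor (Vwf), and Gp6 binds collagen. Itga2b is also found on early blood progenitors that are not megakaryocytes. Alpha granules hold the chemokine Pf4, Vwf and the receptor Treml1, the small GTPase Rab27b acts in granule secretion, and the ETS factor Fli1 acts with Gata1 on many genes of the lineage.

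On GRCm38 with GENCODE vM21 all 9 are protein-coding genes. Itga2b lies at chr11:102453297-102470122 on the minus strand, Gp9 at chr6:87778072-87779768 on the plus strand, Pf4 at chr5:90772435-90773383 on the plus strand and Fli1 at chr9:32422204-32542861 on the minus strand. Treml1 lies at chr17:48359916-48367176 on the plus strand, Vwf at chr6:125546774-125686679 on the plus strand and Gp6 at chr7:4363965-4397744 on the minus strand. Gp1bb, at chr16:18620317-18622403 on the minus strand, shares 1902 bases with Sept5 and 1938 bases with Gm49601 on the same strand, so its level is uncertain.

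RefSeq promoter windows, from 250 bases before the annotated start to 50 after it, were at hand for 6 of the 9 genes, Pf4, Gp9, Gp6, Itga2b, Gp1bb and Treml1. The 250 bases before the start are shown for Pf4 and Gp9, since both rose in T2 libraries at 24 months yet stood in different orders across the groups. Both are on the plus strand of GRCm38.p6, Pf4 at chr5:90772185-90772434 and Gp9 at chr6:87777820-87778069, and capitals mark matches to GATAA (the core letters of GATA factor motifs) or to AGGAAG or CGGAAG (letters common in ETS factor motifs), searched on both strands.
Pf4: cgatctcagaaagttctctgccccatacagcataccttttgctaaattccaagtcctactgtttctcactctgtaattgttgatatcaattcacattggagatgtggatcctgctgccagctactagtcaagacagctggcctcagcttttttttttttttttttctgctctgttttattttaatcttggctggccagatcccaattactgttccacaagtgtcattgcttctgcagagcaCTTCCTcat
Gp9: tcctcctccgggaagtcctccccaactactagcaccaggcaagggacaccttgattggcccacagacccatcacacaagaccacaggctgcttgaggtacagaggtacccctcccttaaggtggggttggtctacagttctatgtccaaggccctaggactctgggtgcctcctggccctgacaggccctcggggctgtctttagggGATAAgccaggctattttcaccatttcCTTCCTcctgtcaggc
Before the start, the Pf4 window held 1 ETS match, 9 bases upstream and on the minus strand, and no GATAA. That of Gp9 held a GATAA match 43 bases upstream and an ETS match 16 bases upstream on the minus strand, and the 2 matches did not overlap. Of the 6 windows, 2 held GATAA and 4 held an ETS match before the start, and of all 32851 RefSeq windows 22.58% held GATAA, 39.21% held an ETS match and 7.802% held both. A match describes the letters and is not a binding site.

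Each library summed to the same TPM total, so read depth is unknown, and 10519 to 12008 genes reached 1 TPM. Libraries of one group correlated at Pearson r of 0.9883 to 0.9977 across genes. Bcl11a was higher in every T2 library (33.2 to 85.3 TPM) than in the T1 libraries of the same WTiMOS table (8.52 to 48.5 TPM), and overlapped in KOiMOS MPP3 (68.8 to 73.2 in T1, 64.3 to 70.6 in T2). The myeloid gene Mpo averaged 2190 TPM or more in the 4 groups of MPP3 of 3 months but only 195 and 281 TPM in MPP3 of 24 months, against 33.3 to 112 TPM in MPP4, and the lymphoid gene Dntt averaged 393 TPM or more in MPP4 against at most 172 in MPP3. In 3 tables (WTiMOS MPP3 of 24 months and both WTiMOS MPP4 tables) the Y-linked genes Eif2s3y, Ddx3y, Kdm5d and Uty summed to at most 0.184 TPM in T1 and to 54.0 to 169 TPM in T2, so the sex of the cells' source and T1 or T2 cannot be told apart there. In MPP3 of 3 months, all libraries held both Y-linked RNA and Xist, though not at even levels. In KOiMOS the Y-linked sum was 110 to 114 TPM in T1 and 55.3 to 61.2 TPM in T2. Xist was 21.0 to 22.8 and 28.3 to 29.2 TPM there. In WTiMOS the sum was 64.2 to 78.9 and 33.8 to 58.5 TPM, and Xist was 28.2 to 32.7 and 33.4 to 40.5 TPM. The mix of sexes may thus differ between T1 and T2 and between KOiMOS and WTiMOS, and its part was not tested.

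Of the markers of finished platelets, some were near 0 and others were not. Tubb1, the platelet tubulin, reached at most 0.628 TPM, and Clec1b, a platelet receptor, at most 0.682 TPM. All 8 such markers (Ppbp, Gp5, Gp1ba, Tubb1, Clec1b, Itgb3, Selp and P2ry12) were above 0 in at least 1 library, and their sum ranged from 4.58 to 96.3 TPM. Selp alone ranged from 0.861 to 81.8 TPM. In these bulk libraries, fewer cells with a transcript and less of it per cell cannot be told apart.

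Of the 9 genes, 3 stayed below 1 TPM in every library, too low for the main tests. Gp6 was listed at 0 in all 30 libraries. Vwf did not exceed 0.818 TPM and was listed at 0 in 2 libraries, and Gp1bb did not exceed 0.586 TPM and was listed at 0 in 4. Vwf was 0.489, 0.716 and 0.767 TPM in T2 and 0.329, 0.404 and 0.293 TPM in T1 of KOiMOS MPP3, which did not overlap. Gp1bb was highest in T2 of WTiMOS MPP3 of 24 months, at 0.424, 0.483 and 0.586 TPM, while its neighbour Sept5 averaged 0.0214 TPM there and 3.33 TPM in T2 of KOiMOS MPP3, where Gp1bb averaged 0.0369 TPM.

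**Figure D1:**
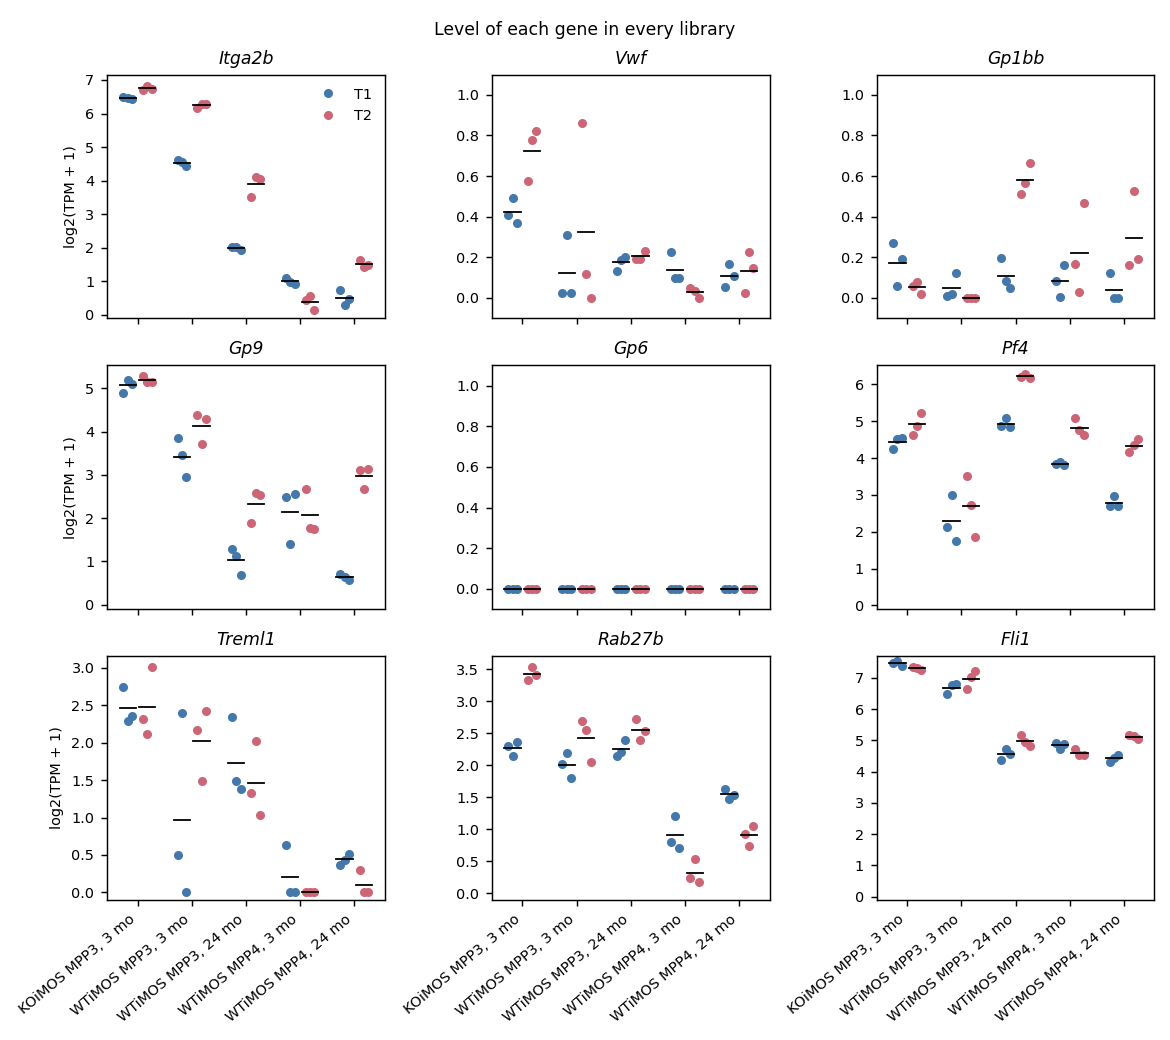
Level of each of the 9 genes as log2(TPM + 1), with 1 point per library, a bar at the mean of 3 libraries, and T1 and T2 side by side in each table; the vertical scale differs between panels. Itga2b, Gp9 and Fli1 are highest in MPP3 of 3 months, Pf4 is highest in T2 of MPP3 of 24 months, and Vwf, Gp1bb and Gp6 stay below 1 TPM.

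T2 was set against T1 within each table. Itga2b rose in T2 in all 3 MPP3 tables, and in MPP4 it was higher in T2 at 24 months and lower in T2 at 3 months. Pf4 rose in 4 of the 5, all but WTiMOS MPP3 of 3 months. Gp9 rose at 24 months, in both MPP3 and MPP4. Rab27b moved both ways, up in KOiMOS MPP3 and down in WTiMOS MPP4 of 24 months, and Treml1 passed in no table in the main tests. Without the 1 TPM filter given below, Rab27b was also lower in T2 of MPP4 of 3 months, and Treml1 in T2 of MPP4 of 24 months. Genes that reached 1 TPM in 3 or more of the libraries compared were tested with limma on log2(TPM + 1), a scale that understates changes of low genes, and called at an adjusted p under 0.05. Every fold given with these tests is of TPM + 1, and is smaller than the ratio of TPM where levels are low. The 1 TPM filter admits a low gene through the group where it is high. Members called that way in a comparison of one group with another are named below with their adjusted p without the filter. Genes of the wider lists are given with the filter only.

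In KOiMOS MPP3 6 of the 9 genes were tested. Of these 3 were called higher in T2 (Itga2b, Pf4 and Rab27b) and 1 lower (Fli1), where 36.4% of all genes tested were called, 15.9% higher and 20.4% lower. WTiMOS MPP3 of 3 months had 1 of 6 called higher, Itga2b, and none lower (8.39% and 5.96% of all genes, 14.3% together), and 1 gene of the 9 lay under an unadjusted p of 0.05 without being called, Gp9. WTiMOS MPP3 of 24 months had 4 of 6 higher (Itga2b, Pf4, Gp9 and Fli1) and none lower (30% and 12% of all genes, 42.0% together), though Gp9 passed the filter through T2 alone.

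In WTiMOS MPP4 of 3 months 3 of the 9 genes were tested and 1 was called higher, Pf4, against 81.3% of all genes called, 8.71% higher and 72.6% lower. In WTiMOS MPP4 of 24 months 4 of 5 were higher (Itga2b, Pf4, Gp9 and Fli1) and 1 lower (Rab27b), against 65.2% of all genes called, 58.2% higher and 7% lower. Of these 5, Itga2b and Gp9 passed the filter through T2 alone and Rab27b through T1 and 1 T2 library, so their calls are no count in support. Without the filter 1 member was higher at 3 months and 2 lower, Itga2b (-0.61, adjusted p = 0.00788) and Rab27b (-0.59, adjusted p = 0.0173). At 24 months 4 were higher and 2 lower, Rab27b and Treml1. The calls in MPP4 leaned to one side across the whole transcriptome, with a median log2 difference of all genes of -0.74 at 3 months and 0.43 at 24 months. It was 0.18 in WTiMOS MPP3 of 24 months, 0.10 in WTiMOS MPP3 of 3 months and -0.04 in KOiMOS MPP3.

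Dividing each library by its median ratio over 8913 genes above 1 TPM in all libraries removed most of this lean. All genes were then called higher and lower at 28.5% and 22.2% in MPP4 of 3 months, 15.8% and 18.5% in MPP4 of 24 months, 18.9% and 18.5% in MPP3 of 24 months, 4.30% and 7.95% in WTiMOS MPP3 of 3 months, and 20% and 17.9% in KOiMOS MPP3. The members called after this rescaling were 2 higher in MPP4 of 3 months (Pf4 and Fli1), 3 higher and 1 lower in MPP4 of 24 months, 3 higher in MPP3 of 24 months, 1 higher in WTiMOS MPP3 of 3 months and 3 higher in KOiMOS MPP3.

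**Figure D2:**
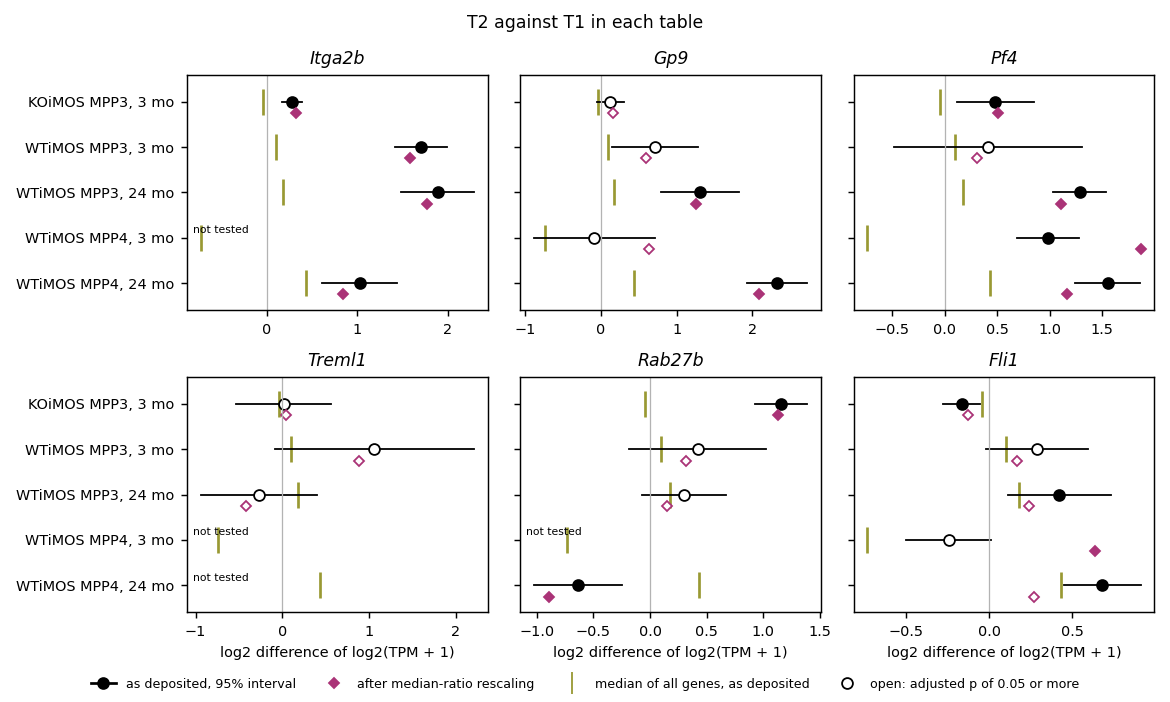
Log2 difference of T2 from T1 for the 6 tested genes in each of the 5 tables, with circles and 95% intervals for values as deposited, diamonds after median-ratio rescaling, filled where the adjusted p was under 0.05, and ticks at the median of all genes tested. Pf4 lies to the right of 0 in every table and Itga2b in the 4 where it passed the filter, and Fli1 in MPP4 of 3 months lies on opposite sides of 0 before and after rescaling.

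Itga2b, the alpha chain of the fibrinogen receptor, ranged from 0.116 to 113 TPM over the 30 libraries. For WTiMOS MPP3 of 3 months it was 23.5, 22.6 and 20.8 TPM in T1 and 70.9, 76.9 and 77.4 TPM in T2, a log2 difference of 1.71 ± 0.13 (SE, n = 3 per group, adjusted p = 2.71e-06), or 3.27-fold. Every T2 library lay above every T1 library. At 24 months it was 3.09, 3.09 and 2.85 TPM in T1 and 10.4, 16.2 and 15.7 TPM in T2, again without overlap (1.89 ± 0.18, adjusted p = 1.47e-05, 3.71-fold).

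In KOiMOS MPP3 the Itga2b step was small and still larger than the spread between libraries, from 89.7, 87.8 and 85.5 TPM in T1 to 102, 113 and 105 TPM in T2 (0.28 ± 0.05, adjusted p = 0.0011, 1.21-fold). MPP4 held little Itga2b RNA. At 24 months it was 0.657, 0.224 and 0.379 TPM in T1 and 2.10, 1.72 and 1.79 TPM in T2, which did not overlap (1.02 ± 0.19, adjusted p = 0.00112; 2.0 with a pseudocount of 0.1 TPM in place of 1). It passed the filter there through T2 alone, and without the filter the adjusted p was 0.00298. At 3 months the order was the other way, 1.16, 0.969 and 0.890 TPM in T1 and 0.373, 0.491 and 0.116 TPM in T2, under the filter. Without it the difference was -0.61 ± 0.15 (adjusted p = 0.00788), where the median of all genes tested with the filter was -0.74. Across the 10 groups ordered by mean, only 1 of the 9 neighbouring pairs overlapped, the lowest pair.

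Gp9, the small subunit of the von Willebrand factor receptor, was higher in T2 in both tables of 24 months. In MPP4 it was 0.629, 0.564 and 0.493 TPM in T1 and 7.67, 5.35 and 7.74 TPM in T2, a log2 difference of 2.33 ± 0.18 (adjusted p = 8.04e-06), or 5.02-fold on TPM + 1. The group means were 0.562 TPM in T1 and 6.92 TPM in T2. The MPP3 libraries of that age gave 1.44, 1.17 and 0.601 TPM in T1 and 2.72, 4.98 and 4.78 TPM in T2 (1.31 ± 0.23, adjusted p = 0.00111). T2 was above T1 in every library of both 24-month tables. In both tables Gp9 passed the filter through T2 alone, and without the filter the adjusted p was 0.000312 in MPP4 and 0.00827 in MPP3.

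At 3 months Gp9 passed the test in no table. Its WTiMOS MPP3 values were 13.4, 10.0 and 6.68 TPM in T1 and 19.9, 12.1 and 18.7 TPM in T2, which overlapped (0.72 ± 0.26, adjusted p = 0.0907). In KOiMOS MPP3 it stood at 28.9, 35.5 and 33.5 TPM in T1 and 38.3, 34.5 and 34.2 TPM in T2 (0.13 ± 0.08, adjusted p = 0.246). In MPP4 it ranged from 1.63 to 4.93 TPM in T1 and from 2.35 to 5.37 TPM in T2, overlapping ranges, and its log2 difference of -0.09 ± 0.35 (adjusted p = 0.831) became 0.64 after rescaling (adjusted p = 0.15).

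Pf4, a chemokine of alpha granules, was not ordered like Itga2b, Gp9 or Fli1. It was highest in WTiMOS MPP3 of 24 months, at 28.5, 33.2 and 27.5 TPM in T1 and 72.3, 77.4 and 71.5 TPM in T2 (1.29 ± 0.12, adjusted p = 8.33e-06, 2.44-fold). The lowest mean was that of T1 in WTiMOS MPP3 of 3 months. Pf4 was 3.36, 6.96 and 2.36 TPM in T1 and 10.4, 5.62 and 2.64 TPM in T2 there, and the groups overlapped (0.41 ± 0.41, adjusted p = 0.558). That T2 group averaged 6.22 TPM, beside 5.94 TPM in T1 of MPP4 of 24 months. MPP4 held more Pf4 RNA than Itga2b RNA in every group mean, on the length-scaled TPM.

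In WTiMOS MPP4 of 3 months Pf4 rose from 13.2, 13.8 and 12.9 TPM in T1 to 33.2, 26.0 and 23.6 TPM in T2 (0.98 ± 0.14, adjusted p = 1.41e-05), while 72.6% of all genes were called lower. After rescaling the difference was 1.87. At 24 months it rose from 5.48, 6.84 and 5.50 TPM to 17.0, 19.4 and 21.7 TPM (1.55 ± 0.14, adjusted p = 1.98e-05, 2.93-fold), and neither table had overlapping groups.

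The Pf4 step in KOiMOS MPP3 was near the threshold. It was 17.8, 21.8 and 22.5 TPM in T1 and 23.9, 28.5 and 36.6 TPM in T2, without overlap (0.48 ± 0.16, adjusted p = 0.0474). The call was lost without T1 replicate 1 (adjusted p = 0.127), T1 replicate 2 (0.0964), T1 replicate 3 (0.0788) or T2 replicate 2 (0.122), and with no filter on low genes (0.0645).

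Rab27b, a GTPase of granule secretion whose gene lies on chromosome 18, rose in KOiMOS MPP3 from 3.91, 3.44 and 4.13 TPM in T1 to 9.03, 10.6 and 9.64 TPM in T2 (1.16 ± 0.11, adjusted p = 4.56e-06, 2.23-fold), with no overlap. The mast cell and basophil genes chosen as markers rose beside it, with 6 of 9 higher and none lower, beside 15.9% and 20.4% of all genes. They summed to 854 to 978 TPM in T1 and to 4403 to 4783 TPM in T2. Tpsb2, a mast cell tryptase, averaged 62.2 TPM in T1 and 1860 TPM in T2. Of these 9 markers, none was at 0 throughout a group of that table, and the part of such cells in the Rab27b difference was not tested.

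In WTiMOS MPP4 of 24 months Rab27b went the other way, from 2.10, 1.77 and 1.90 TPM in T1 to 0.905, 0.671 and 1.08 TPM in T2, with no overlap (-0.64 ± 0.18, adjusted p = 0.0092; -1.06 with a pseudocount of 0.1 TPM). Without the filter the adjusted p was 0.011. The MPP3 tables of WTiMOS mice gave 3.07, 3.59 and 2.47 TPM in T1 and 5.44, 4.87 and 3.12 TPM in T2 at 3 months, which overlapped (0.42 ± 0.28, adjusted p = 0.35). At 24 months they gave 3.43, 3.61 and 4.28 TPM in T1 and 5.62, 4.27 and 4.77 TPM in T2, overlapping by a single pair (0.30 ± 0.17, adjusted p = 0.176). In MPP4 of 3 months Rab27b averaged 0.899 TPM in T1 and 0.253 TPM in T2, without overlap, and did not meet the filter. Without the filter the difference was -0.59 ± 0.17 (adjusted p = 0.0173), where the median of all genes tested with the filter was -0.74.

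Treml1, a receptor stored in alpha granules, was low and scattered. Its T1 libraries of WTiMOS MPP3 of 3 months held 0.413, 4.29 and 0 TPM and its T2 libraries 3.52, 1.81 and 4.36 TPM (1.06 ± 0.53, adjusted p = 0.209). T1 replicate 2 alone stood within the T2 range, and without it the difference was 1.78 (adjusted p = 0.0206). In KOiMOS MPP3 it ranged from 3.91 to 5.72 TPM in T1 and from 3.35 to 7.04 TPM in T2 (0.01 ± 0.23, adjusted p = 0.971), and in WTiMOS MPP3 of 24 months from 1.61 to 4.08 and from 1.05 to 3.05 TPM (-0.27 ± 0.30, adjusted p = 0.492). In MPP4 no library exceeded 0.548 TPM, too low for the main tests. Without the filter Treml1 was lower in T2 at 24 months (-0.34, adjusted p = 0.0342), at 0 to 0.229 TPM against 0.293 to 0.426 TPM in T1. It did not pass at 3 months (-0.21, adjusted p = 0.316).

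Fli1, the ETS factor of the group, was the most abundant of the 9 in every MPP3 group of 3 months. In KOiMOS MPP3 it fell slightly, from 178, 184 and 165 TPM in T1 to 161, 159 and 149.8 TPM in T2 (-0.17 ± 0.05, adjusted p = 0.024). The libraries did not overlap, but the call was lost after rescaling (adjusted p = 0.0778), with no filter (0.0579), in one fit of all libraries (0.0634), and without T1 replicate 1 (0.072), T1 replicate 2 (0.116) or T2 replicate 3 (0.0903).

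At 24 months in MPP3, Fli1 went from 19.9, 25.3 and 22.5 TPM in T1 to 35.3, 29.6 and 27.0 TPM in T2, without overlap (0.42 ± 0.14, adjusted p = 0.0322). That call was lost after rescaling (0.24, adjusted p = 0.173), with no filter (adjusted p = 0.061), and without T1 replicate 1 (0.126), T1 replicate 3 (0.0906), T2 replicate 1 (0.0725) or T2 replicate 2 (0.068). WTiMOS MPP3 of 3 months held 88.8, 108 and 109.9 TPM of Fli1 in T1 and 99.3, 130.4 and 148 TPM in T2, which overlapped (0.29 ± 0.14, adjusted p = 0.204). Without T2 replicate 1, the lowest of its group, the difference was 0.45 (adjusted p = 0.0201).

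In WTiMOS MPP4 of 24 months Fli1 was 19.0, 20.5 and 22.4 TPM in T1 and 34.8, 34.0 and 32.1 TPM in T2, without overlap (0.68 ± 0.10, adjusted p = 0.000416), and the call was lost after rescaling (0.27, adjusted p = 0.0689). At 3 months it was 28.9, 25.4 and 28.8 TPM in T1 and 25.5, 22.1 and 22.1 TPM in T2 (-0.25 ± 0.12, adjusted p = 0.0691), and -0.31 (adjusted p = 0.0263) without T2 replicate 1. The direction flipped after rescaling, to 0.64 (adjusted p = 0.000307), and after a trend on GC content and length was removed, to 0.45 (adjusted p = 0.00334).

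KOiMOS was set against WTiMOS in MPP3 of 3 months, first within T1 and then within T2. KOiMOS and WTiMOS are called strains here for short, though the labels state no strain. The 2 stand in separate tables, so strain and table cannot be told apart, and these comparisons use the same libraries as the T2 and T1 steps above. Itga2b, Pf4, Gp9 and Fli1 were higher in KOiMOS in both T1 and T2. Among T1 libraries 5 of the 6 tested genes were higher in KOiMOS and none lower, beside 35.7% and 26.5% of all genes, 62.2% together (28.8% and 34.7% after rescaling, with the same 5 and 0 members). Treml1, among these 5, passed the filter through KOiMOS and 1 WTiMOS library, so its call is no count in support. Among T2 libraries again 5 were higher and none lower, beside 28.7% and 31.8% of all genes (60.5% together).

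Within T1, Itga2b spanned 85.5 to 89.7 TPM in KOiMOS and 20.8 to 23.5 TPM in WTiMOS (1.93 ± 0.10, adjusted p = 1.23e-10, 3.81-fold). Pf4 spanned 17.8 to 22.5 TPM against 2.36 to 6.96 TPM (2.15 ± 0.32, adjusted p = 3.21e-05, 4.43-fold), and Gp9 28.9 to 35.5 TPM against 6.68 to 13.4 TPM (1.65 ± 0.20, adjusted p = 5.13e-06). Fli1 spanned 165 to 184 TPM against 88.8 to 109.9 TPM (0.78 ± 0.11, adjusted p = 1.7e-05). None of these 4 overlapped between the strains. Treml1 did overlap, at 3.91 to 5.72 TPM against 0 to 4.29 TPM (1.5 ± 0.41, adjusted p = 0.00473), and its call was lost without WTiMOS replicate 3 (1.02, adjusted p = 0.0614) and with no filter (adjusted p = 0.0818), having passed the filter through KOiMOS and 1 WTiMOS library. Rab27b, at 3.44 to 4.13 against 2.47 to 3.59 TPM, did not pass (0.26 ± 0.21, adjusted p = 0.287).

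Within T2, the Itga2b gap was smaller, 102 to 113 TPM in KOiMOS against 70.9 to 77.4 TPM in WTiMOS (0.50 ± 0.10, adjusted p = 0.000409, 1.42-fold). Pf4 spanned 23.9 to 36.6 TPM against 2.64 to 10.4 TPM (2.22 ± 0.31, adjusted p = 1.89e-05, 4.65-fold), and Gp9 34.2 to 38.3 TPM against 12.1 to 19.9 TPM (1.06 ± 0.20, adjusted p = 0.00029). Rab27b, which did not pass within T1, was higher here at 9.03 to 10.6 TPM against 3.12 to 5.44 TPM (1.0 ± 0.21, adjusted p = 0.000657). Fli1 spanned 149.8 to 161 TPM against 99.3 to 148 TPM (0.33 ± 0.11, adjusted p = 0.0153), a call lost without WTiMOS replicate 1 (0.17, adjusted p = 0.153) and with no filter (adjusted p = 0.116). Treml1 overlapped and did not pass (0.45 ± 0.41, adjusted p = 0.349).

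The test of the difference between the strains' T2 and T1 steps called Itga2b alone, at -1.43 ± 0.14 (adjusted p = 3.47e-06), so its step was smaller in KOiMOS. Of all genes 20.9% were called, 7.99% with a larger step in KOiMOS and 12.9% with a smaller one (11.4% and 7.25% after rescaling, where Itga2b was again the 1 member called, at -1.27). Fli1 lay at the threshold (-0.45 ± 0.15, adjusted p = 0.0503), and was called without KOiMOS T1 replicate 3 (adjusted p = 0.0343), KOiMOS T2 replicate 1 (0.0447), KOiMOS T2 replicate 2 (0.0419) or WTiMOS T2 replicate 1 (-0.61, adjusted p = 0.00365). Treml1 (-1.05 ± 0.59, adjusted p = 0.228) was called without WTiMOS T1 replicate 2 (-1.77, adjusted p = 0.0171). For Rab27b the difference of steps was 0.73 ± 0.29 (adjusted p = 0.0902), called at the same size in one fit of all libraries (adjusted p = 0.0365) and at 0.86 with a trend on GC content and length removed (adjusted p = 0.0439). Those for Gp9 (-0.59, 95% interval -1.19 to 0.01) and Pf4 (0.07, 95% interval -0.90 to 1.04) did not pass.

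**Figure D3:**
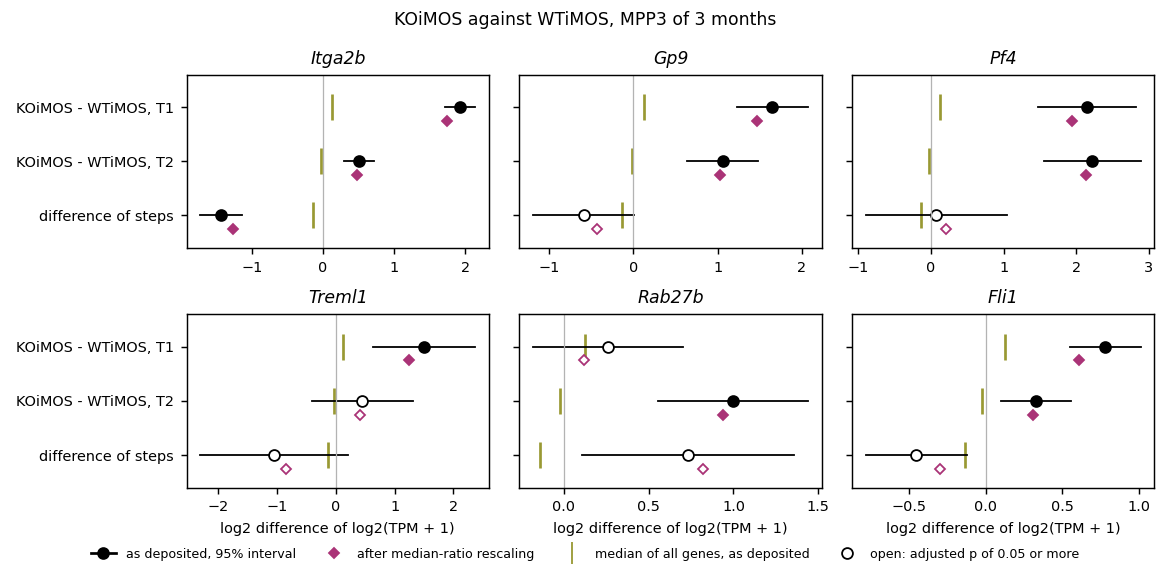
Log2 difference of KOiMOS from WTiMOS in MPP3 of 3 months within T1 and within T2, and the difference of the strains' T2 and T1 steps, marked as circles with 95% intervals (as deposited) and diamonds (rescaled), filled where the adjusted p was under 0.05, with ticks at the median of all genes. Itga2b lies at 1.93 in T1 and 0.50 in T2, and it alone of the 6 genes has a filled mark for the difference of steps, at -1.43.

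Marker genes of other lineages also differed between these groups. Erythroid markers summed to 860 to 939 TPM in T1 and 2247 to 2396 TPM in T2 of KOiMOS MPP3, and to 608 to 710 TPM in T1 and 1578 to 1882 TPM in T2 of WTiMOS MPP3 of 3 months. In KOiMOS 8 of 10 were higher in T2 and none lower, beside 15.9% and 20.4% of all genes. In WTiMOS 5 of 9 tested were higher and none lower, beside 8.39% and 5.96% of all genes. Of these 10 markers, none was at 0 throughout a group of those tables, and their part in the Itga2b differences was not tested. Among them Car2 alone ranged from 264 to 2059 TPM over the 30 libraries, so the erythroid sums rest largely on it. Markers of finished platelets summed to 50.7 to 53.1 TPM in T1 and 54.3 to 64.0 TPM in T2 of KOiMOS, and to 60.0 to 63.8 TPM in T1 and 84.3 to 96.3 TPM in T2 of WTiMOS, where 2 of the 8 were at 0 in T2. Gp5, the partner of Gp9 in its receptor complex, averaged 0.121 and 0.0379 TPM in KOiMOS T1 and T2 against 4.85 and 10.8 TPM in WTiMOS, the reverse of the Gp9 order between the strains.

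WTiMOS cells of 24 months were set against those of 3 months, again across tables, so age and table cannot be told apart, and the WTiMOS MPP3 libraries of 3 months also served the comparison of strains. In MPP3 T1 the Y-linked genes summed to 64.2 to 78.9 TPM at 3 months and to 0 at 24 months, so the sex of the source cannot be told apart from age there either. In MPP3, Itga2b, Gp9 and Fli1 were lower at 24 months in both T1 and T2, and Pf4 was higher in both. Within T1, 3 of 6 tested genes were lower and 1 higher, beside 78.6% of all genes called, 53.3% lower and 25.3% higher (median -0.55), and after rescaling 3 were lower and 3 higher, beside 40.5% and 38.9%. Within T2, 3 were lower and 1 higher, beside 52.1% and 25.7% (77.8% together, median -0.51), and after rescaling 3 lower and 2 higher, beside 39.7% and 37.2%. Within T1, Gp9 passed the filter only through the age where it was higher, so its call is no count in support.

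Itga2b fell by 2.54 on the log2 scale within T1 (SE 0.16, adjusted p = 3.51e-12), 5.81-fold lower on TPM + 1, and by 2.36 within T2 (SE 0.16, adjusted p = 1.13e-11). Gp9 fell by 2.39 within T1 (SE 0.25, adjusted p = 5.41e-09) and by 1.80 within T2 (SE 0.25, adjusted p = 5.42e-07). Fli1 fell by 2.13 within T1 and by 1.99 within T2 (SE 0.14 for both), from 88.8 to 148 TPM at 3 months to 19.9 to 35.3 TPM at 24 months. Pf4 rose by 2.65 ± 0.30 within T1 (adjusted p = 1.15e-06, 6.26-fold) and by 3.52 ± 0.30 within T2 (adjusted p = 3.59e-08, 11.5-fold). No library of 24 months overlapped one of 3 months for any of these 4 genes within T1 or within T2. Gp9 passed the filter within T1 through the 3-month libraries and 2 of 24 months (adjusted p = 3.29e-05 without the filter).

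Other lineages' markers differed with age in the same MPP3 libraries. Mast cell and basophil markers summed to 446 to 483 TPM at 3 months and 2381 to 2609 TPM at 24 months within T1, and to 395 to 645 and 970 to 1091 TPM within T2. In T1 4 of the 7 tested were higher and 2 lower, and in T2 4 of 9 and 2, with 2 of the 9 at 0 throughout T1 of 3 months (Prss34 and Tpsb2). Beside the marker counts of this paragraph, 25.3% of all genes were called higher and 53.3% lower within T1, and 25.7% and 52.1% within T2. Endothelial markers summed to 204 to 216 TPM at 3 months and 15.2 to 18.3 TPM at 24 months within T1, and to 274 to 327 and 36.6 to 40 TPM within T2, with 5 of 5 and 4 of 5 lower and 1 of the 7 at 0 throughout both groups of 3 months. Stem cell markers summed to 336 to 379 TPM at 3 months and 1052 to 1070 TPM at 24 months within T1, although 5 of 6 tested were lower and 1 higher, and to 495 to 565 and 672 to 749 TPM within T2 (3 of 8 lower and 1 higher). One of these markers, Ly6a, ranged from 59.8 to 1621 TPM over all libraries of the series. Markers of finished platelets summed to 60.0 to 63.8 TPM at 3 months and 25.8 to 29.1 TPM at 24 months within T1, and to 84.3 to 96.3 and 26.3 to 28.9 TPM within T2. In MPP4 the mast cell and basophil sum was 119 to 130 TPM at 3 months and 269 to 313 TPM at 24 months within T1, with 4 of the 9 markers at 0 throughout the former and 5 throughout the latter. The part of such cells in the age differences was not tested.

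Across genes, the age difference in MPP3 ran with GC content (Spearman -0.44 over 11200 genes in T1 and -0.37 over 11247 in T2, where genes are not independent replicates). The median GC of the annotated transcripts was 57.8% for Itga2b and 58.3% for Gp9, against 47.5% for Fli1 and 50% for Pf4. With a trend on GC content and length removed from each library, an alternative added after the data were seen, Itga2b was -1.47 within T1 and -1.49 within T2, and Gp9 was -1.15 and -0.76. All 4 of these values were still called. Rab27b and Treml1 did not pass as deposited, and after rescaling Rab27b was higher at 24 months by 0.71 within T1 (adjusted p = 0.00593) and 0.55 within T2 (adjusted p = 0.0288). Treml1 within T1 was 0.77 ± 0.43 (adjusted p = 0.105), and 1.49 (adjusted p = 0.00097) without T1 replicate 2 of 3 months. It was also called after rescaling (1.1, adjusted p = 0.0188), with a pseudocount of 0.1 TPM (1.97, adjusted p = 0.0417) and with the GC and length trend removed (2.19, adjusted p = 0.000132), and it passed the filter through the 24-month libraries and 1 of 3 months.

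In MPP4, Gp9 and Fli1 were lower at 24 months within T1 and higher within T2 as deposited, and neither was higher within T2 by the test after rescaling. Within T1, 3 of 4 tested genes were lower at 24 months and 1 higher, beside 60.7% of all genes called, 53.8% lower and 6.86% higher. After rescaling 2 were lower and 1 higher, beside 16.8% and 17.9%. Within T2, 3 of 4 were higher and 1 lower, beside 83.4% of all genes called, 74.6% higher and 8.75% lower. After rescaling 1 was higher and 2 lower, beside 24.2% and 29.6%. The median of all genes was -0.37 within T1 and 0.79 within T2. Gp9 and Rab27b within T1 and Itga2b within T2 passed the filter only through the age where they were higher. Their calls are thus no count in support.

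Pf4 was lower at 24 months within T1, at 5.48 to 6.84 TPM against 12.9 to 13.8 TPM (-1.05 ± 0.14, adjusted p = 1.68e-06), and within T2, at 17.0 to 21.7 TPM against 23.6 to 33.2 TPM (-0.48 ± 0.14, adjusted p = 0.00281, and -1.42 after rescaling). The T2 call was lost in one fit of all libraries (adjusted p = 0.0573). Gp9 was lower within T1, at 0.493 to 0.629 TPM against 1.63 to 4.93 TPM (-1.51 ± 0.28, adjusted p = 0.00053), passing the filter through 3 months alone (adjusted p = 0.00481 without it). Within T2 Gp9 overlapped by a single pair, at 5.35 to 7.74 against 2.35 to 5.37 TPM (0.91 ± 0.28, adjusted p = 0.00764), and the call was lost after rescaling (0.12, adjusted p = 0.732) and without T2 replicate 2 (adjusted p = 0.0654) or T2 replicate 3 (0.0566) of 3 months.

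Fli1 in MPP4 was lower within T1 (-0.41 ± 0.11, adjusted p = 0.00336) and higher within T2 (0.52 ± 0.11, adjusted p = 0.000164). The first call was lost after rescaling (-0.05, adjusted p = 0.74), and the second reversed (-0.42, adjusted p = 0.00195). Itga2b was higher within T2 at 24 months, at 1.72 to 2.10 TPM against 0.116 to 0.491 TPM (1.12 ± 0.20, adjusted p = 1.23e-05), and passed the filter through 24 months alone (adjusted p = 1.54e-05 without it). Rab27b was higher within T1, at 1.77 to 2.10 TPM against 0.634 to 1.32 TPM (0.64 ± 0.20, adjusted p = 0.00753), with 1 library of 3 months at 1 TPM or more (adjusted p = 0.00552 without the filter). Rab27b within T2 did not meet the filter, at 0.671 to 1.08 TPM against 0.128 to 0.445 TPM. Without the filter its difference there was 0.59 (adjusted p = 0.00419). Itga2b within T1 did not meet the filter either, and without it the difference was -0.51 (adjusted p = 0.0131).

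**Figure D4:**
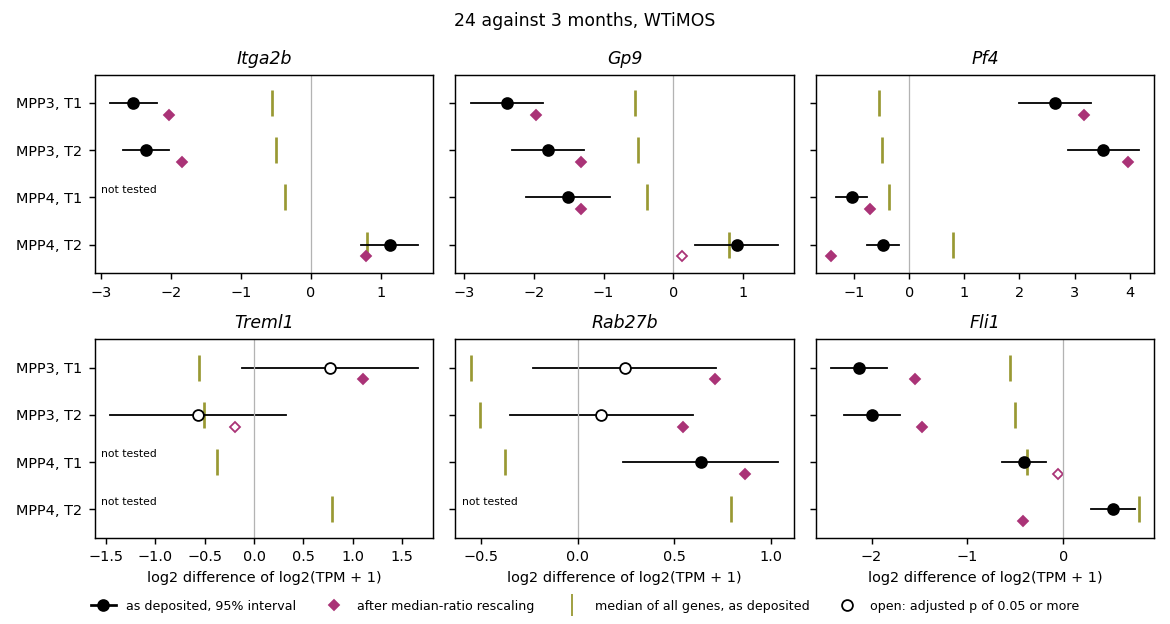
Log2 difference of 24 from 3 months in WTiMOS MPP3 and MPP4 within T1 and within T2, with circles and 95% intervals as deposited, diamonds after median-ratio rescaling, filled where the adjusted p was under 0.05, and ticks at the median of all genes tested. In MPP3, Itga2b, Gp9 and Fli1 lie below 0 and Pf4 above it, before and after rescaling.

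The steps from T1 to T2 were then compared between ages, with each age's own T1 as its base. In MPP3 the 24-month T1 libraries alone had no Y-linked RNA, so age and sex of the source cannot be told apart in these steps. Within MPP3 none of 6 members differed by limma's adjusted p, beside 10.9% of all genes with a larger step at 24 months and 6.12% with a smaller one (17.0% together), and 1 had an unadjusted p under 0.05, Treml1 (-1.34 ± 0.62, adjusted p = 0.151, and -2.05 with an adjusted p of 0.00956 without T1 replicate 2 of 3 months). The Itga2b steps of 1.71 and 1.89 differed by 0.18 (95% interval -0.29 to 0.65). In MPP4 4 of 5 members had a larger step at 24 months, beside 84.5% of all genes called, 76.9% larger and 7.52% smaller, with a median of 1.16. After rescaling 2 were larger and 2 smaller, beside 24.0% and 24.6%.

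In MPP4 the Itga2b steps differed by 1.63 ± 0.28 (adjusted p = 1.08e-05) and the Gp9 steps by 2.41 ± 0.39 (adjusted p = 4.76e-05), and after rescaling by 1.17 and 1.45, both still called. Itga2b passed the filter here through T2 of 24 months and 1 T1 library of 3 months, so its call is no count in support. For Pf4 the difference was 0.57 ± 0.20 (adjusted p = 0.0103) and reversed to -0.70 after rescaling (adjusted p = 0.00377). That Pf4 call was lost in one fit of all libraries (adjusted p = 0.109) and with the GC and length trend removed (0.02, adjusted p = 0.949). For Fli1 it was 0.93 ± 0.16 (adjusted p = 8.85e-06) and reversed to -0.37 (adjusted p = 0.0478). Rab27b did not pass (-0.05 ± 0.28, adjusted p = 0.88), but was called smaller with that trend removed (-0.90, adjusted p = 0.0148).

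MPP4 and MPP3 levels are given as a description, since they stand in separate tables. At 3 months every WTiMOS MPP3 library was above every WTiMOS MPP4 library for Itga2b (20.8 to 77.4 against 0.116 to 1.16 TPM), Gp9 (6.68 to 19.9 against 1.63 to 5.37), Fli1 (88.8 to 148 against 22.1 to 28.9) and Rab27b (2.47 to 5.44 against 0.128 to 1.32). Pf4 was the exception, lower in MPP3 (2.36 to 10.4 TPM) than in MPP4 (12.9 to 33.2 TPM). At 24 months Pf4 was higher in MPP3 (27.5 to 77.4 TPM) than in MPP4 (5.48 to 21.7 TPM), Itga2b and Rab27b were also higher in MPP3, and the Gp9 and Fli1 ranges overlapped.

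The other genes of the lineage were taken from 4 lists (surface and adhesion, granule and secretion, signalling and cytoskeleton, transcription and cytokine receptors) with 91 genes besides the 9, of which 88 were in the tables. WTiMOS MPP3 of 3 months had 26 of 74 tested higher in T2 and 6 lower, beside 8.39% and 5.96% of all genes, with a median log2 difference of 0.29 against 0.10 over all genes. After rescaling 13 of 74 were higher and 7 lower, beside 4.30% and 7.95%. At 24 months 30 of 73 were higher and 15 lower, beside 30% and 12% (median 0.28 against 0.18), and after rescaling 23 and 18 of 75, beside 18.9% and 18.5%. In KOiMOS MPP3 20 of 76 were higher and 25 lower, beside 15.9% and 20.4% (median -0.05 against -0.04), and after rescaling 23 and 22 of 75, beside 20% and 17.9%. In MPP4 the lists leaned the way all genes did, with 3 of 73 higher and 60 lower at 3 months, beside 8.71% and 72.6% (median -0.89 against -0.74), and 55 of 74 higher and 7 lower at 24 months, beside 58.2% and 7% (median 0.67 against 0.43). After rescaling these became 13 higher and 17 lower of 75, beside 28.5% and 22.2%, and 24 higher and 15 lower of 76, beside 15.8% and 18.5%.

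**Figure D5:**
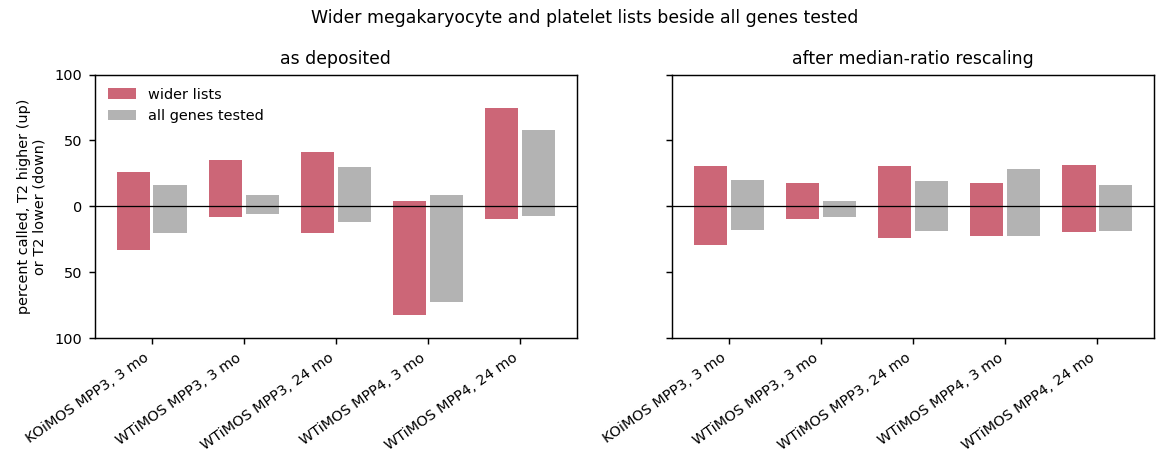
Percent of the tested genes of the 4 wider lists (red) and of all genes tested (grey) called higher (upward bars) or lower (downward bars) in T2 than in T1 of each table, as deposited on the left and after median-ratio rescaling on the right. The MPP4 bars of both sets lean down at 3 months and up at 24 months as deposited, and are less one-sided after rescaling (13 list genes higher and 17 lower, and 24 higher and 15 lower).

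Among these genes, those with the largest changes and no overlap of libraries were named. P2rx1, the ATP-gated channel of platelets, was higher in T2 of WTiMOS MPP3 at 3 months (18.4 ± 2.55 against 5.05 ± 0.45 TPM, SD, n = 3) and at 24 months (6.13 ± 1.54 against 0.799 ± 0.71), and in MPP4 at 24 months (3.90 ± 0.80 against 0.186 ± 0.164). Esam, an endothelial and platelet adhesion molecule that also marks stem cells, was higher in T2 of WTiMOS MPP3 at 3 months (81.1 ± 10.1 against 34.6 ± 8.49 TPM) and at 24 months (15.2 ± 1.58 against 2.28 ± 0.575). F13a1, a clotting factor subunit also made by monocytes, was lower in T2 in all 4 WTiMOS tables, by a log2 difference of -2.59 and -3.28 in MPP3 and -3.19 and -2.30 in MPP4, and higher in KOiMOS MPP3 (29.3 ± 5.31 against 14.4 ± 2.30 TPM). In MPP4, P2rx1 at 24 months passed the filter through T2 alone. F13a1 at 3 months, at 0.207 ± 0.044 TPM in T2, passed it through T1 alone. P2rx1 averaged 0.799 TPM in T1 of MPP3 of 24 months, and F13a1 averaged 0.863 TPM in T2 of MPP4 of 24 months. Not every library of those groups thus reached 1 TPM, and both genes needed the other group to pass the filter there. These calls are no count in support.

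Itgb3, the partner of Itga2b in the fibrinogen receptor, was lower in T2 in 4 of the 5 tables. At 24 months it was lower in MPP3 (3.34 ± 0.06 against 9.13 ± 0.42 TPM, adjusted p = 8.27e-05) and in MPP4 (1.52 ± 0.21 against 4.54 ± 0.39 TPM, adjusted p = 0.00028). At 3 months Itgb3 was lower in KOiMOS MPP3 (7.06 ± 0.22 against 10.4 ± 0.31 TPM, adjusted p = 0.000879) and in MPP4 (0.488 ± 0.224 against 1.87 ± 0.49 TPM, adjusted p = 0.000753), and did not pass in WTiMOS MPP3 (2.69 ± 0.14 against 2.70 ± 0.42 TPM, adjusted p = 0.999). In MPP4 of 3 months 72.6% of all genes were called lower (median -0.74), and Itgb3 passed the filter there through T1 alone. The share of all genes called lower was 20.4% in KOiMOS MPP3, 12% in MPP3 of 24 months and 7% in MPP4 of 24 months. In KOiMOS MPP3 the list genes named as higher were Fcer1g, the signalling chain shared by Gp6 and the IgE receptor (388 ± 16.8 against 146 ± 10.9 TPM), and Gfi1b, a repressor of the lineage (64.6 ± 0.98 against 36.6 ± 2.46), beside F13a1. Lat (58.8 ± 5.14 against 134 ± 7.12 TPM), Plek (31.8 ± 4.51 against 72.4 ± 3.94) and the thrombin receptor F2r (30.6 ± 1.78 against 51.6 ± 1.72), all of platelet signalling, were lower.

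Gata1, the partner of Fli1, was higher in T2 of WTiMOS MPP3 of 3 months (23.9 ± 7.94 against 9.40 ± 2.72 TPM, adjusted p = 0.00598), and Ets1 (6.99 ± 2.17 against 13.7 ± 1.26) and Serpine2 (18.3 ± 6.73 against 35.5 ± 6.71) were lower. At 24 months Serpine2, a protease inhibitor, was lower in T2 of MPP3 (4.53 ± 0.56 against 67.3 ± 6.43 TPM) and F11r, a junction adhesion molecule, was higher (9.46 ± 0.84 against 1.12 ± 0.78). In MPP4 of 24 months Slc35d3, of dense granules (9.88 ± 2.34 against 1.18 ± 0.39 TPM), and the thromboxane synthase Tbxas1 (22.6 ± 2.87 against 5.82 ± 1.04) were higher and Selp, an adhesion receptor (5.99 ± 0.65 against 15.05 ± 1.43), was lower. In MPP4 of 3 months Clu, Fcer1g and Srgn were the 3 genes called higher, and Nfe2, a regulator of platelet release, fell by 1.81 on the log2 scale (59.5 ± 2.79 against 212 ± 32.0 TPM).

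Over the 30 libraries, which share tables, ages and cell types, Itga2b correlated with Fli1 (Pearson r = 0.93 on log2(TPM + 1)), Gp9 (0.86), Rab27b (0.81) and Treml1 (0.81). Pf4 had r = -0.02 with Itga2b and -0.23 with Fli1, and 0.61 with Gp1bb, which stayed below 1 TPM. The genes most like each member, among those with a mean of at least 5 TPM in some group, were Tfr2, Deptor and Esam for Itga2b (r = 0.98 for each), Pear1, Nfic and Pglyrp2 for Gp9 (0.95 to 0.96) and Nfia, Ehbp1l1 and Tnfrsf21 for Fli1 (0.99 for each). They were Eef1b2, Rpl12 and Tyrobp for Pf4 (0.83 to 0.86), Ms4a2, Mfsd2b and Slc18a2 for Treml1 (0.85 to 0.87) and Adgre5, Rnf125 and Mfsd2b for Rab27b (0.89 to 0.91). For the low genes they were Hpn, Sphk1 and Tmem2 for Vwf (0.83 to 0.85) and Ms4a7, Fcrla and Ubd for Gp1bb (0.76 to 0.79), and Gp6, at 0 throughout, had none.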

How the data were processed

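Total RNA of sorted bone marrow progenitors was amplified with a single-cell and low-input cDNA kit, per the labels' protocols. The authors deposited TPM per gene in 5 tables, and all 30 columns matched a sample by title. The submitters' processing notes name HISAT2, StringTie, featureCounts, DESeq2 and mm10. Versions, which tool gave the TPM, read depth and the handling of shared reads are all not given in the sources used here. Because TPM hold no depth, no counting interval was computed.

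TPM were analysed as log2(TPM + 1) with limma 3.58.1 in R 4.3.3 (trend and robust moderation), each table fitted by itself, with Benjamini and Hochberg adjustment over all genes tested. A gene was tested with at least 1 TPM in at least 3 of the libraries compared. Contrasts across tables used each table's own moderated variance with Satterthwaite degrees of freedom. There were 14 comparisons. With 3 libraries against 3, an exact permutation test of 1 gene cannot go below 0.1, so none is given. The fit was tested on simulated data. Alternatives were dropping each library in turn, a 0.1 pseudocount, rescaling by median ratios, testing without the filter, one fit of all libraries, blocking on the replicate number and, added after the data were seen, removal of a GC and length trend.

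The members and gene lists were chosen with earlier results of these data known. Besides the 9 members, up to 3 higher and 3 lower genes of the wider lists were named per T2 and T1 comparison, by size among called genes without overlap of libraries, and 3 genes most like each member. Gp5, Tubb1, Clec1b, Mpo, Dntt, Tpsb2 and Sept5 are outside that rule and were named as markers, partners or neighbours after their values were seen.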

Additional observations from a re-analysis of the deposited data

Results flagged for a closer look

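The step from T1 to T2 differed between groups for 5 results, by limma's test of the difference itself. The Itga2b step was smaller in KOiMOS than in WTiMOS MPP3 of 3 months (-1.43 ± 0.14 SE, adjusted p = 3.47e-06, T2 above T1 in 3 of 3 libraries of both strains). In WTiMOS MPP4 the step was larger at 24 than at 3 months for Itga2b (1.63 ± 0.28, adjusted p = 1.08e-05), Gp9 (2.41 ± 0.39, adjusted p = 4.76e-05), Pf4 (0.57 ± 0.20, adjusted p = 0.0103) and Fli1 (0.93 ± 0.16, adjusted p = 8.85e-06). The median of all genes for that MPP4 difference was 1.16, and the Pf4 and Fli1 values lie below it. Itga2b passed the filter for that difference through T2 of 24 months and 1 T1 library of 3 months.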

How the results depend on the processing

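A change of sign with a call before or after it came in no case from leaving out a library, and in 7 from other settings, all in MPP4. Fli1 in T2 against T1 at 3 months became 0.64 after rescaling and 0.45 with the GC and length trend removed. Fli1 in 24 against 3 months within T2 became -0.42 and -0.24. The difference of steps between ages became -0.70 for Pf4 after rescaling, and -0.37 and -0.14 for Fli1. By construction, rescaling sets the median gene near 0. Some values called neither before nor after also changed sign, for Treml1, Gp9, Rab27b, Pf4, Fli1 and Itga2b, some of them on leaving out a library.

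Counts of genes called moved over 1.5 times after rescaling in MPP4 for T2 against T1 at 3 months (5851, from 9176) and 24 months (3909, from 7407), 24 against 3 months within T1 (3946, from 6880) and T2 (6185, from 9400), and the steps by age (5802, from 9958). With the GC and length trend removed they were 5852, 3689 and 3619 for the first 3, and 6071 for the steps by age. With no filter, the adjustment ran over more genes and 1056 were called in T2 against T1 of WTiMOS MPP3 of 3 months (from 1682) and 1390 for the steps by age in MPP3 (from 2109).

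Members called in KOiMOS MPP3, T2 against T1, were 2 with no filter (from 4). In MPP4 of 3 months they were 3 with no filter (1 higher and 2 lower), 2 in one fit of all libraries (1 higher and Fli1 lower), and 2 after rescaling and with the trend removed (both higher), from 1 higher. For the steps by strain they were 2 in one fit and with the trend removed (from 1), and for the steps by age in MPP3 1 with no filter (from 0). The causes were not tested.

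Leaving out 1 library gave 2 to 4 members called in KOiMOS MPP3, 933 to 2197 genes and 1 to 2 members in WTiMOS MPP3 of 3 months, 1 to 2 members in MPP4 of 3 months and 3 to 5 in MPP4 of 24 months, where Itga2b and Gp9 missed the filter without any 1 T2 library. For the steps by strain it gave 1700 to 2999 genes and 1 to 2 members, and for the steps by age in MPP3 1355 to 2433 genes and 0 to 1 member. Without T1 replicate 1 or 2 of WTiMOS MPP3 of 3 months the genes called were 933 or 993 within that table and 1700 or 1746 for the steps by strain, and 1355 came without T1 replicate 3 of 24 months.

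The replicate numbers did not pair the libraries: over 15 same-numbered pairs r was -0.197 to 0.127, 1 was over 0.1, and 4 of 15 T1 libraries were closest to their own number. With the number as a block, 2 members were called for the steps by strain (Fli1 added, adjusted p = 0.0101), Fli1 in WTiMOS MPP3 of 24 months was lost (adjusted p = 0.0603), and no other member's call changed.

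Depth is unknown, and Vwf, Gp1bb and Gp6 never reached 1 TPM, so the main tests did not cover them. Without the filter Gp1bb was called higher in T2 than in T1 of WTiMOS MPP3 of 24 months (0.47, adjusted p = 0.00689). Within T2 of MPP3 it was higher at 24 than at 3 months (0.58, adjusted p = 1.84e-05). Both calls rest on the same T2 libraries of at most 0.586 TPM, and the Gp1bb level is uncertain because of the bases shared with its neighbours.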
